A study of Mus musculus with 10 samples.

Results

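Fatty acids, sterols and complex lipids are activated, shortened, lengthened and moved between compartments by a few large enzyme and transporter families, and 85 genes of these families were listed among the 8590 genes of a table of RNA synthesis, processing and degradation rates. They were chosen by the form of their gene symbols. The rule used no measured value, though earlier results of these data were known when it was set. Grouped by role, most of them were 14 peroxins (Pex genes), 12 acyl-CoA synthetases and thioesterases (Acs and Acot), 16 genes of beta-oxidation and its thiolases (Aca, Ech and Had), 6 elongases and desaturases (Elovl and Fads), 6 genes of sphingolipid synthesis (Cers and Sptlc), 7 of glycerolipid acylation and lipid hydrolysis (Agpat and Pnpla) and 23 ATP-binding cassette (ABC) genes. Of the last, Abce1 and the 3 Abcf genes carry the cassette but act in translation and do not transport lipids. Pex5l matched by symbol as well, although it encodes a neuronal partner of ion channels and not a peroxin.

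The cells were cortical neurons in culture from wild-type mice and from mice lacking Fmr1, the gene of the RNA-binding protein FMRP that is silenced in fragile X syndrome. Both genotypes carry the strain label FVB.129P2-Pde6b+ Tyrc-ch/AntJ, came from embryos of day 18 and were grown for 14 days in vitro. They were exposed to 200 µM 5-ethynyluridine (5-EU), a label built into new RNA, for 20 or 60 min. Each genotype thus had 2 labelled libraries, 1 per labelling time, and these stood as its replicates. The labels do not say whether libraries came from separate cultures or animals, so p-values measure only the spread between these libraries. Rates were estimated by the authors with INSPEcT from new and total RNA, and are printed in the units of their table, whose time unit is not stated in the sources used here. The read depth behind each rate is not given, so no counting interval could be attached.

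Peroxisomes and mitochondria share the breakdown of fatty acids: very long chains enter the peroxisome through ABC transporters of subfamily D, and shorter chains are finished in the mitochondrial matrix. Peroxins build the peroxisome and import its enzymes, which carry targeting signals read by the receptors Pex5 and Pex7. In neurons these pathways are best known from inherited disease, such as the Zellweger spectrum that follows loss of peroxins. An RNA's level at steady state is its synthesis rate divided by its degradation rate, and processing is the conversion of unspliced to mature RNA.

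The targeted gene was checked first. Fmr1 itself had an RNA level, solved from the rates as described below, of 10.5 and 10.3 in the wild-type libraries of 20 and 60 min, while the knockout had 3.48 and 3.26, a log2 difference of -1.62. Its knockout synthesis rates were 2.06 and 1.56 against 0.810 and 0.692 in the wild-type libraries, and its deposited degradation rates 2.58 and 2.66 against 0.0774 and 0.0672. The level is solved from these rates and is no separate measurement. Markers of the labelled cell type were thinly represented in the rate table: 2 of 8 neuron markers were listed (Rbfox3 and Gad2), beside 2 of 5 astrocyte markers (Aqp4 and Aldh1l1), 3 of 5 markers of the oligodendrocyte lineage (Pdgfra, Cspg4 and Mbp) and 0 of 5 microglial ones. In RNA from whole cultures, fewer cells of a type and less RNA per cell cannot be told apart.

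Promoter sequences are shown for 3 genes: a beta-oxidation gene, a fatty acid activating gene and a lipid transporter. Their windows hold short motifs that were searched in all members. Of the 85 genes, 67 had RefSeq windows (GRCm38.p6), 84 in all, each running from 250 bases before to 50 bases after the start site. The core of a sterol regulatory element, TCACCCCAC, was looked for on both strands and lay in 2 of the 84 windows (2.38%), those of Acsl1 and Abca3, against 0.551% of all 32851 windows. The core of the NRF1 motif, GCGCATGC, lay in 3 windows (3.57%), those of Abcb10, Abcf3 and Acadm, against 2.71%. The E-box CACGTG was in 10.7% of member windows and 7.15% of all, and CCAAT in 40.5% and 37.4%. The windows below run 5′ to 3′ on the strand of the gene, with the motif, or its reverse complement, in capitals. They are Acadm at chr3:153944594-153944893 (minus strand), Acsl1 at chr8:46490716-46491015 (plus strand) and Abca3 at chr17:24351773-24352072 (plus strand). The Acsl1 window lies inside the gene, which runs from 46471037 to 46536051, and so belongs to an internal start site.
Acadm: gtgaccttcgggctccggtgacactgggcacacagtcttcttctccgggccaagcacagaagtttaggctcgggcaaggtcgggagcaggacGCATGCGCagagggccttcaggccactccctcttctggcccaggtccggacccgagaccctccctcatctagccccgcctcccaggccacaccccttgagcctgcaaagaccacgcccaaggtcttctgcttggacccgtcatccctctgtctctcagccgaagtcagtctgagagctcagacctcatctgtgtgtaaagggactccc
Acsl1: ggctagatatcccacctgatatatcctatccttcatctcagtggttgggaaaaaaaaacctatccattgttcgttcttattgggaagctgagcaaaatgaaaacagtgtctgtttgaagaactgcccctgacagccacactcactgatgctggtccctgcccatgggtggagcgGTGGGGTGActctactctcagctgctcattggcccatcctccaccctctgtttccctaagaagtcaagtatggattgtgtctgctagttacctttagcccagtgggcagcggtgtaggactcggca
Abca3: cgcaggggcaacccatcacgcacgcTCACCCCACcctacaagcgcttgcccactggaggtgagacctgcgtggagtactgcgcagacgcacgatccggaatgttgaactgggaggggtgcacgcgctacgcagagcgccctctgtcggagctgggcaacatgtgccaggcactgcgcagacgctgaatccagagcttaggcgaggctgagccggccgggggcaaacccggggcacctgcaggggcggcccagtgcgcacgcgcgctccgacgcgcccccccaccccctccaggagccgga
A match of letters describes the window only. In these data Acadm had a higher degradation rate in the knockout as deposited, while Acsl1 and Abca3 did not pass the test for any rate (limma). For degradation they did so with labelling time as a block (limma adjusted p 0.0289 and 0.0307) and in the authors' deposited table (0.0446 and 0.0225). With the recomputed knockout rates described below, 0 members passed, with or without the block.

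Whether a rate was listed at all differed between the genotypes. In each wild-type library 81 of the 85 genes had a degradation rate above 0, against 62 in the 20 min and 58 in the 60 min library of the knockout. All 4 libraries held a rate for 56 genes (65.9%), close to the 66.5% of all genes (5716 of 8590). A further 19 of the 81 genes with both wild-type rates (23.5%) had none in the knockout, against 19.5% of all genes (1546 of 7914). By role these included the peroxins Pex13 and Pex16, Acss2, Acot1 and Acot13, the beta-oxidation genes Acaa2, Acadsb, Acadvl, Acat2 and Echs1, Elovl4, Cers4, Pnpla8, and the ABC genes Abca1, Abca5, Abcc5, Abcd3 and Abcf3. Abca1, the cholesterol exporter, had wild-type rates of 0.117 at 20 min and 0.134 at 60 min. Acadvl, the dehydrogenase that begins mitochondrial oxidation of very long chains, had 0.0760 and 0.0345. Abcd3, a peroxisomal transporter, had 0.0783 and 0.0559. A rate was missing in 1 knockout library for Pex14, Acsl3, Acot8, Hadha, Sptlc1 and Agpat4. Pnpla2, the main triglyceride lipase, was the only member listed in the knockout alone (0.154 and 0.190), and Pex10, Acot2 and Elovl1 had no degradation rate in any library. The tests below cover the 56 genes with all rates. The 6 genes with 1 knockout rate entered only the fits that leave out the other knockout library, where a lone library stands for its genotype. As their knockout arm is 1 value, they are given here without a test. The authors' deposited table has Sptlc1 (-3.82, adjusted p = 0.00687 by limma) and Agpat4 (-1.95, adjusted p = 0.0320) as lower, and does not call Acot8 or Pex14.

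**Figure D1:**
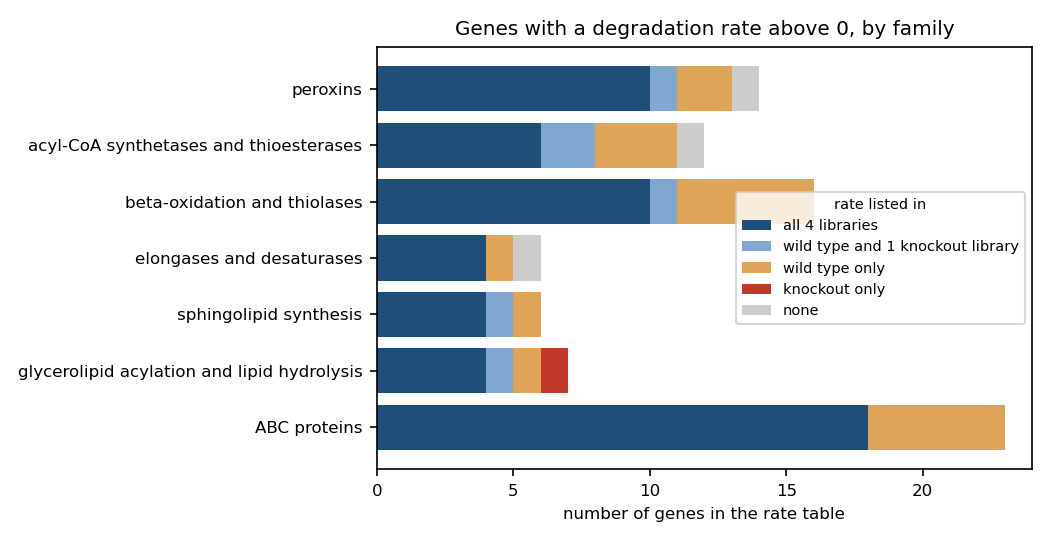
Number of genes per family (horizontal axis) by the labelled libraries in which a degradation rate above 0 was listed. Genes listed in wild type only (orange) occur in each family drawn, among them 5 of 16 beta-oxidation genes, 5 of 23 ABC genes and 1 of 6 elongases and desaturases.

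Within wild type, degradation rates of the 81 genes had a median of 0.0801 (mean of both labelling times). The lowest mean was that of Acss2, which makes acetyl-CoA from acetate, at 0.0221 ± 0.000966 (SD, n = 2). Close to it came Abca2 (0.0305 ± 0.0262), Acadm (0.0321 ± 0.000404) and Abca3 (0.0325 ± 0.0210), and the order of these genes is not resolved: at 60 min the rates of Abca2 (0.0120), Abca3 (0.0176), Pnpla6 (0.0210), Agpat1 (0.0219) and Abcc8 (0.0223) lay below that of Acss2 (0.0228). The highest mean was that of Acot8, a peroxisomal thioesterase, at 0.458 ± 0.285, followed by Elovl6 (0.267 ± 0.0309), Acot13 (0.266 ± 0.114) and Pex13 (0.259 ± 0.0836). These 4 overlapped in their single libraries. The 19 genes without a knockout rate had a wild-type median of 0.0905, and the 56 tested genes 0.0744.

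The main comparison asked whether loss of Fmr1 changed how fast these transcripts were degraded. As deposited, degradation rates of 19 of the 56 genes were higher and those of 2, Acsl4 and Elovl6, were lower in the knockout (limma, adjusted p under 0.05). That is 37.5% of the members, against 23.1% of all 5716 genes tested, of which 20.5% were higher and 2.57% lower. The median log2 change was 1.49 over the members and 0.65 over all genes, and 36 members and 2465 genes had an unadjusted p under 0.05. Rates of the genotypes did not overlap in 50 of 56 members (89.3%) and in 69.1% of all genes. Centring each library on its median removed a shift of 0.86 log2 units. After it the member median was 0.63, 37 of 56 changes rather than 50 lay above 0, and 1 member was called, Acsl4 (1.79% of members against 1.61% of all genes). Quantile normalization left 7 calls, 4 higher and 3 lower (12.5% against 10.4%). Leaving out 1 library left a lone library in its genotype, assumed to vary like the others, with genes listed in those 3 libraries tested. It gave 21 calls without the wild-type 20 min library (15 of them among the first 21; 37.5% of members against 19.8% of all genes) and 1 call without the knockout 20 min library, that of Acsl3, which has no other knockout value (1.75% against 3.53%). There were 0 calls without the wild-type 60 min library (0.0175% of all genes) and 0 without that of the knockout (2.33%). With labelling time as a block, 39 members passed, all 21 among them, against 48.0% of all genes.

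The deposited knockout rates contain a further term beside synthesis and level. In wild type, synthesis over degradation gave the same RNA level at both labelling times to within 0.001 log2 units in 73 of 81 members. In the knockout it did so in 0 of 56. There the rates instead obeyed another relation, in which degradation rate times level equals synthesis rate minus the difference between knockout and wild-type level. Solved this way, the level at 20 min matched that at 60 min within 0.001 log2 units in 44 of 56 members and within 0.01 in 54. Over all genes whose knockout synthesis differed more than 2-fold between times, and with unspliced RNA counted in, 1267 of 1267 matched within 0.001 when the difference was taken with weight 1, and 5.37% at a weight of 0.5 or 17.9% at 2. The knockout levels in the following examples were solved with this relation, so they give the size of the term and do not test it. For Acsl4 the level was 21.4 in wild type and 23.1 in the knockout, a difference of 1.73. Its knockout synthesis rate was 1.90 at 20 min, and its deposited degradation rate was 0.00729. For Cers5 the level went from 16.3 to 11.2, a difference of -5.11, beside a synthesis rate of 0.886 and a deposited degradation rate of 0.534. The level difference was larger than the synthesis rate itself in 34 of 56 members at 60 min and in 28 of 55 at 20 min.

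Knockout degradation rates were therefore also recomputed as synthesis rate over level. Then 0 of 55 members and 0 of 5704 genes passed (limma), with or without labelling time as a block. With the level solved from both times together, 0 members and 2 genes passed. In these rates both labelling times of a genotype share nearly the same level. The spread between libraries is thus close to that of the synthesis rates, which gave 0 calls among 5794 genes. The lack of calls therefore does not show that degradation was unchanged. Recomputed changes of members ran from -0.65 (Hadh) to 1.38 (Acadm) with a median of 0.14, and 35 of 55 lay above 0. In absolute size the median change was 0.26, while these genes had 1.55 as deposited. Of the 20 called members that could be recomputed, 17 kept their sign. Abcd4 could not be, since its synthesis rate is listed at 0 in the 20 min knockout library. The 6 genes with 1 knockout rate carry the same term. For Acsl3 the deposited knockout rate was 0.0115 and the recomputed one 0.185, against wild-type rates of 0.161 and 0.212. For Sptlc1 they were 0.0157 and 0.167, against 0.197 and 0.207. In the following, the recomputed change of a named member is given where there is one. The family counts of calls stand beside 20.5% of all genes called higher and 2.57% called lower as deposited.

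**Figure D2:**
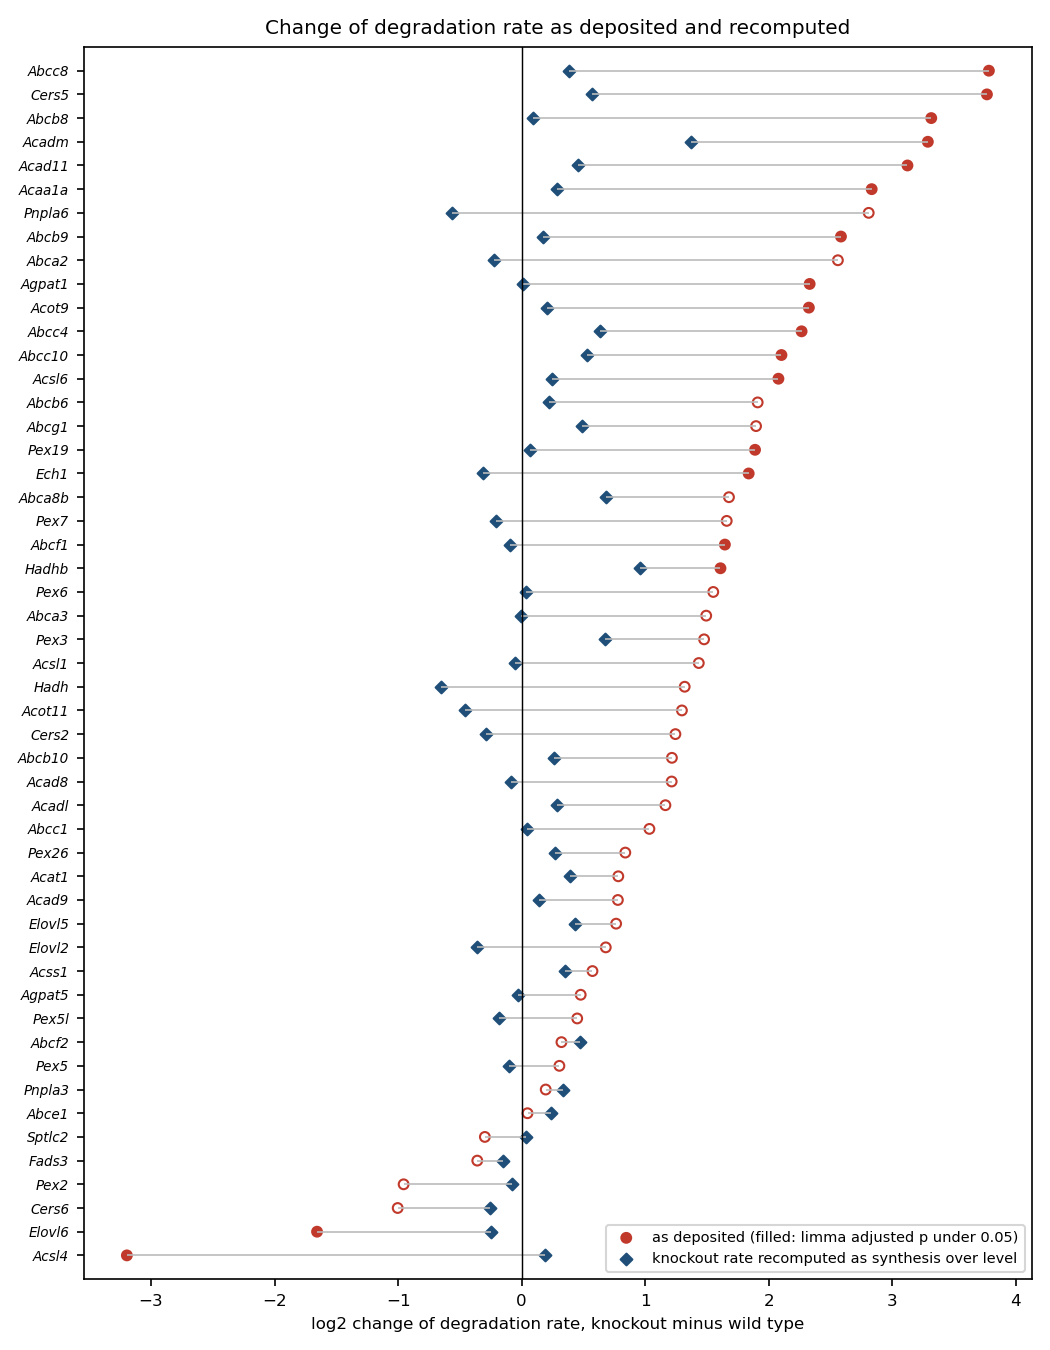
Log2 change of degradation rate, knockout minus wild type (horizontal axis), for 51 of the genes with both values. Circles are changes of the deposited rates (filled where called by limma), diamonds those with the knockout rate recomputed as synthesis over level; the diamonds lie between -0.65 and 1.38.

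Among the peroxins, 3 of 10 tested genes rose in deposited degradation rate and 0 fell, with a median log2 change of 1.51 (0.66 after centring). Without Pex5l, which is no peroxin but was grouped with them by symbol, 3 of 9 rose and the median was 1.55. Pex19 (chromosome 1, 172126755 to 172136493, plus strand, GRCm38), the cytosolic chaperone of peroxisomal membrane proteins, had wild-type rates of 0.0640 and 0.0440 at 20 and 60 min and knockout rates of 0.217 and 0.178. The change was 1.89 (SE 0.374, limma adjusted p = 0.0358), and 0.07 when recomputed. Pex2, a ubiquitin ligase of the import machinery, lay lower in both knockout libraries (0.103 and 0.105) than in wild type (0.205 and 0.198) without passing the test (adjusted p = 0.0900 by limma, change -0.96, recomputed -0.08; with labelling time as a block, 0.0498). The import receptor Pex5 was at 0.31 (recomputed -0.10) and its partner Pex7 at 1.66 (recomputed -0.21), neither of them called, although Pex7 passed with the block (adjusted p = 0.0463 by limma).

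Acyl-CoA synthetases activate fatty acids and thioesterases release them again. Here 2 of 6 tested genes rose, 1 fell, and the median was 1.37 (0.51 centred). Acsl4 (chromosome X, 142317993 to 142390535, minus strand), which activates arachidonic acid, had the lowest knockout rates of all members: 0.00729 and 0.00863, against 0.0642 and 0.0822 in wild type. Its change of -3.20 (SE 0.344, limma adjusted p = 0.0235) was 0.19, of opposite sign, when recomputed, and did not then pass the test. Acsl6, the neuronal synthetase that acts on docosahexaenoic acid, went from 0.0874 and 0.0466 to 0.296 and 0.246 (2.08, limma adjusted p = 0.0415, recomputed 0.25). Acot9, a mitochondrial thioesterase, went from 0.106 and 0.0589 to 0.402 and 0.392 (2.33, recomputed 0.21). Acsl4 and Acsl6, both synthetases of polyunsaturated chains, thus moved in opposite directions as deposited, and were 0.19 and 0.25 as recomputed.

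Beta-oxidation shortens acyl chains by repeated removal of acetyl-CoA. In this family 5 of 10 tested genes rose and 0 fell, with a median of 1.47 (0.61 centred). Acadm (chromosome 3, 153922357 to 153944632, minus strand), the medium-chain acyl-CoA dehydrogenase whose promoter is given above, had wild-type rates of 0.0318 and 0.0324 and knockout rates of 0.366 and 0.269. Its change of 3.29 (SE 0.346, limma adjusted p = 0.0235) was 1.38 as recomputed, the highest recomputed value of any member, but with an adjusted p of 1.00 by limma. Its synthesis rates were 0.149 at both times in wild type, while the knockout had 0.563 and 0.179, and the 20 min knockout library stood highest. Acad11, a dehydrogenase of longer chains, went from 0.0630 and 0.0479 to 0.525 and 0.437 (3.12, recomputed 0.46). Acaa1a, a peroxisomal thiolase, went from 0.128 and 0.0406 to 0.522 and 0.507 (2.83, recomputed 0.28). Ech1, an enoyl-CoA isomerase, went from 0.0440 and 0.0418 to 0.143 and 0.164 (1.84), and its recomputed change was -0.31. Hadhb, the thiolase subunit of the mitochondrial trifunctional protein, went from 0.119 and 0.167 to 0.465 and 0.398 (1.61, recomputed 0.96). Its partner subunit Hadha had wild-type rates of 0.0600 and 0.0564 and a single knockout rate of 0.0110, or 0.0739 as recomputed.

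Elongases and desaturases showed no common direction: 1 of 4 tested genes fell and 0 rose, with a median of 0.16 that became -0.70 after centring, -0.43 after quantile normalization, -0.06 without the knockout 20 min library and -0.11 without the wild-type 60 min library. Elovl6 (chromosome 3, 129532355 to 129638495, plus strand), which lengthens saturated chains from palmitate, had wild-type rates of 0.245 and 0.289 and knockout rates of 0.0688 and 0.104, a change of -1.66 (SE 0.379, limma adjusted p = 0.0466, recomputed -0.25). Elovl5, which lengthens polyunsaturated chains, stood at 0.0809 and 0.115 against 0.165 and 0.164 (0.77, not called; -0.092 after centring, recomputed 0.43). In the sphingolipid family 1 of 4 rose and 0 fell. The median of 0.47 became -0.38 after centring, -0.32 after quantile normalization and -0.76 without the knockout 60 min library. Cers5 (chromosome 15, 99734881 to 99772885, minus strand), a ceramide synthase of palmitoyl chains, had wild-type rates of 0.0562 and 0.0253 and knockout rates of 0.534 and 0.494, a change of 3.77 (SE 0.50, limma adjusted p = 0.0235, recomputed 0.57). Its paralog Cers6, of similar chain preference, lay on the other side: wild-type rates were 0.117 and 0.158 and knockout rates 0.0659 and 0.0696, a change of -1.003 (recomputed -0.26). It was not called, but passed with labelling time as a block (limma adjusted p = 0.0498, and 0.0299 with centring too). Among the glycerolipid genes 1 of 4 rose. Their median was 1.41, and 0.45 without the knockout 60 min library. Agpat1, which makes phosphatidic acid, went from 0.0498 and 0.0219 to 0.187 and 0.148 (2.33, limma adjusted p = 0.0443), and its recomputed change was 0.01. Pnpla6, a phospholipase of the neuronal endoplasmic reticulum, was at 2.81 (adjusted p = 0.0517 by limma, and 0.0192 with the block) and at -0.56 as recomputed.

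Of the 18 tested ABC genes, 7 rose and 0 fell in deposited degradation rate, with a median of 1.89 (1.03 centred). All 18 changes lay above 0 as deposited, as did 3891 of 5716 over all genes. After centring some, such as Abcf2 (-0.53) and Abce1 (-0.81), lay below 0. Abcc8 (chromosome 7, 46104523 to 46180033, minus strand), the sulfonylurea receptor of a potassium channel and not a lipid transporter, had wild-type rates of 0.0911 and 0.0223 and knockout rates of 0.662 and 0.581. Its change of 3.78 (SE 0.758, limma adjusted p = 0.0365) was close to that of Cers5 (3.77), and 0.39 as recomputed. Abcb8 (chromosome 5, 24393663 to 24410054, plus strand), a transporter of the mitochondrial inner membrane, went from 0.0597 and 0.0286 to 0.447 and 0.378 (3.32, recomputed 0.09). Abcb9, a lysosomal peptide transporter, went from 0.0559 and 0.0969 to 0.410 and 0.476 (2.59, recomputed 0.17). Abcd4, which takes part in the lysosomal export of vitamin B12, went from 0.0523 and 0.0587 to 0.267 and 0.288 (2.32). Its knockout synthesis rates were 0 at 20 min and 0.0410 at 60 min, beside a level difference of -0.49. Under the relation above, its deposited 20 min knockout rate thus holds the level difference alone, and there is no recomputed change. The drug and nucleotide exporter Abcc4 (2.27, recomputed 0.63), Abcc10 (2.10, recomputed 0.53) and the translation factor Abcf1 (1.65, recomputed -0.09) were called as well. Among the lipid transporters, 3 did not pass: Abca2 was at 2.56, the cholesterol exporter Abcg1 at 1.90 and Abca3 at 1.49, with limma adjusted p of 0.0769, 0.0704 and 0.139. All 3 passed with labelling time as a block (0.0219, 0.0180 and 0.0307 by limma). As recomputed they were at -0.22, 0.49 and -0.0090, and 0 members passed with the block on recomputed rates. Abce1, which recycles ribosomes, was at 0.05 (recomputed 0.23).

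**Figure D3:**
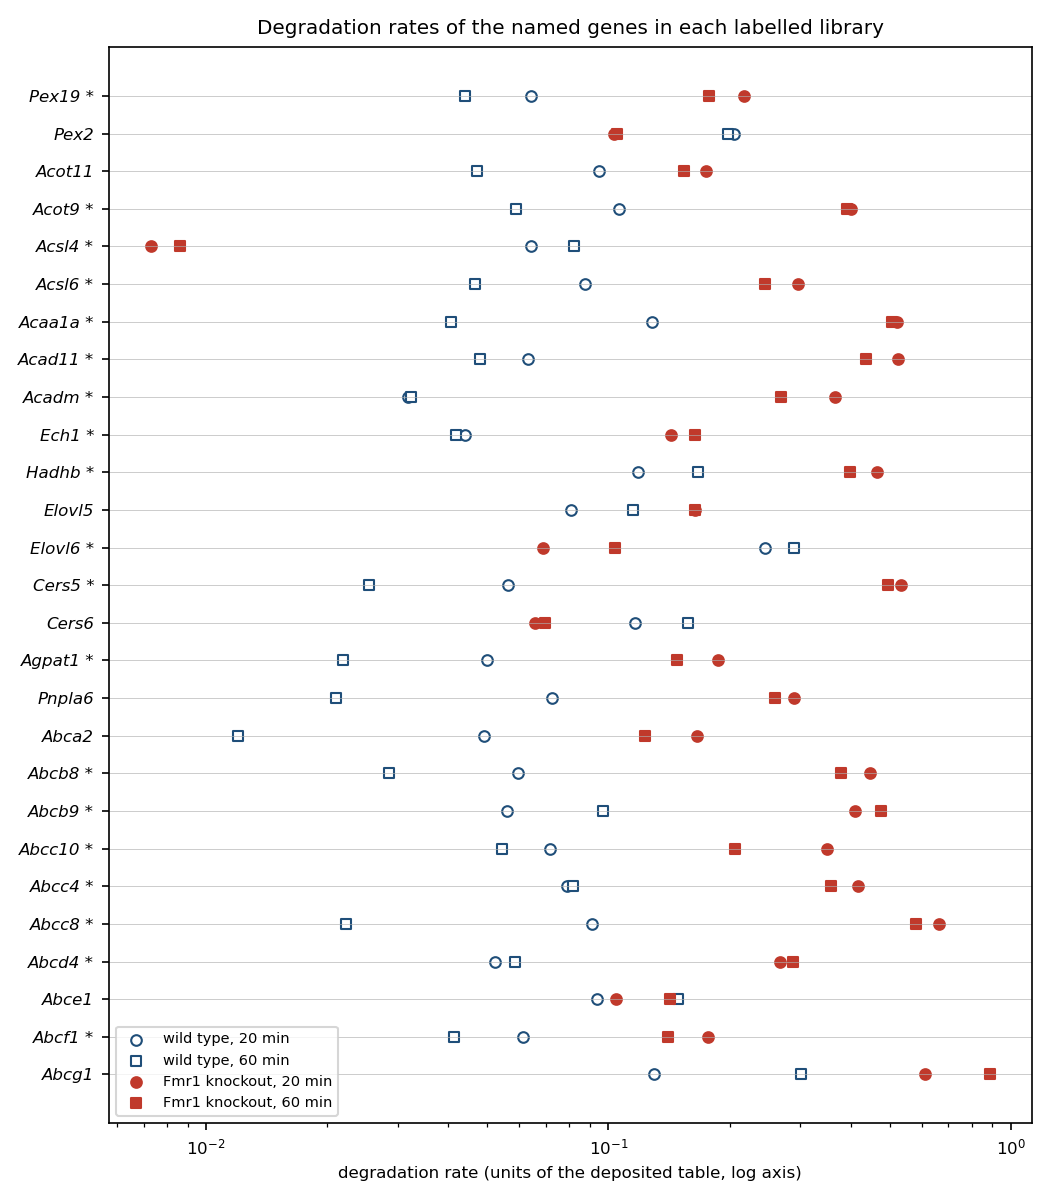
Deposited degradation rates (horizontal log axis) of 27 named genes in each labelled library: open symbols are wild type, filled symbols the knockout, circles 20 min and squares 60 min; an asterisk marks a call by limma. Genes are ordered by role, and the knockout lies to the left for Pex2, Acsl4, Elovl6 and Cers6 and among the wild-type values for Abce1.

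RNA levels solved from the rates gave 1 value per gene and genotype, because both labelling times share it, so there was no replicate and no test. The labels also list 2 input (total RNA) libraries per genotype, whose own values were not used here. Levels are compared here within a gene only, since the table does not say whether rates are per length. Members differed little: the log2 difference ran from -0.63 (Abcc8) to 0.22 (Elovl6), with a median of -0.15 against -0.08 over all genes. It lay below 0 in 47 of 56 members (83.9%) and in 67.7% of all genes, and 0 members were more than 2-fold lower or higher. Abcc8 went from 3.78 to 2.44, Cers5 from 16.3 to 11.2, Abcg1 from 9.04 to 6.28 and Acaa1a from 6.82 to 4.78. All 10 beta-oxidation genes were lower in the knockout, with a median of -0.18. Elovl6 went from 15.6 to 18.1, Acsl4 from 21.4 to 23.1 and Pex2 from 5.31 to 5.81. These 3 genes had lower deposited degradation rates in the knockout. The knockout levels are solved from those rates, so the match is no separate evidence.

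**Figure D4:**
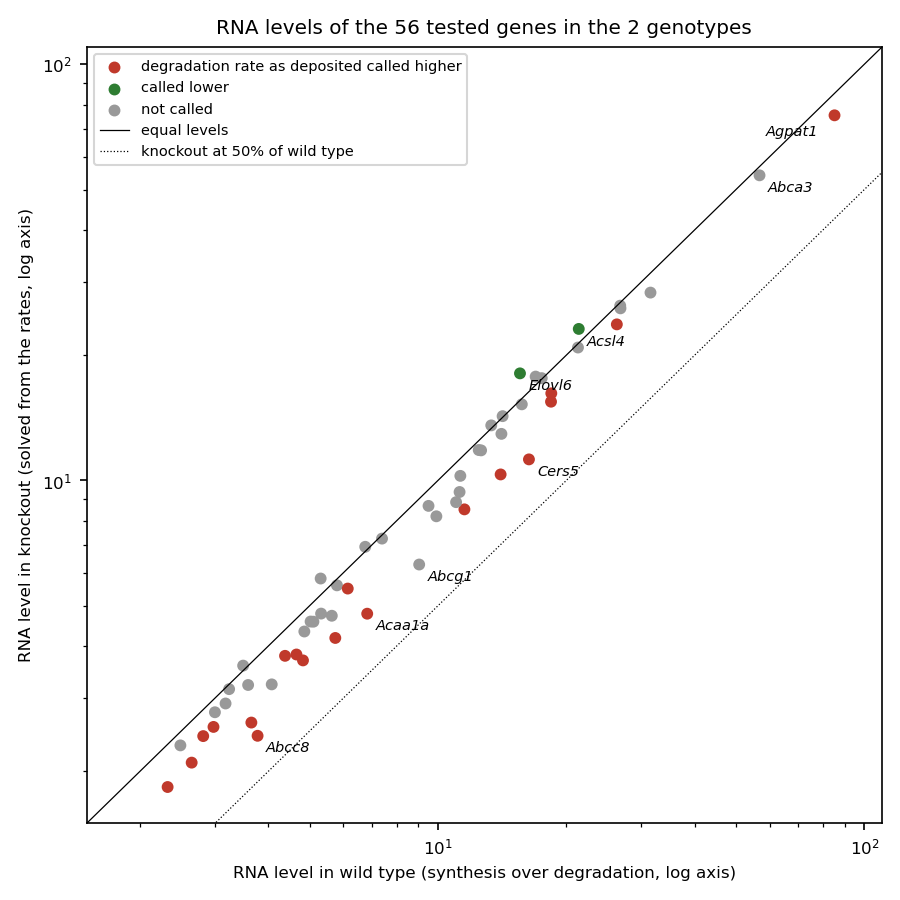
RNA level of each of the 56 genes in wild type (horizontal) and knockout (vertical), both on log axes in the units of the table, with lines at equality and at 50%. Genes called higher in deposited degradation rate (red) lie below the line of equality and the 2 called lower, Acsl4 and Elovl6 (green), above it. The knockout levels are solved from these rates, so this pattern is no separate evidence. No gene reaches the 50% line.

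Synthesis rates gave 0 calls among 55 members and 0 among 5794 genes (0% by limma), with 0 members and 18 genes at an unadjusted p under 0.05, and 0 calls in the authors' deposited table. The member median was -0.08 and that of all genes -0.03. In 29 of 55 members the change had opposite signs at 20 and 60 min, so no direction can be given. The member median itself turned to 0.17 without the wild-type 20 min library and to 0.37 without the knockout 60 min library, and was -0.15 and -0.21 without the other two. Labelling times differed more than genotypes for many genes: Agpat1 had synthesis rates of 4.24 and 1.87 in wild type against 4.31 and 1.46 without Fmr1. Hadh, a dehydrogenase of the third step of beta-oxidation, had the smallest unadjusted p (0.132), with 0.882 and 0.366 against 0.269 and 0.305.

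Processing rates also gave 0 calls, among 50 members and 5082 genes (0% by limma), while 8 members and 783 genes had an unadjusted p under 0.05. The member median was -0.39 and that of all genes -0.36. Centring removed a shift of -0.35, leaving -0.04 for the members, and moved the number of members above 0 from 14 to 24. With labelling time as a block, 14 members passed, 10 lower and 4 higher, against 25.6% of all genes. The block with centring left 6 members, 3 higher and 3 lower (12% against 13.5% of all genes). Without the knockout 20 min library 1 member, Abcc10, passed (1.96% against 1.84%), and 0 without any other single library.

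The peroxins Pex5 and Pex19 were among the 10 lower genes. Pex5 had processing rates of 17.5 and 23.8 with Fmr1 present against knockout rates of 5.98 and 6.12, a change of -1.75 (SE 0.419, adjusted p = 0.173 by limma and 0.0139 with the block). Pex19 had 8.86 and 6.09 against 3.38 and 1.43. The genotypes did not overlap in either gene, as in 25 of 50 members and 46.6% of all genes. Acot11 (14.97 and 7.48 against 3.46 and 2.13, change -1.96) and Abcc10 (13.8 and 10.5 against 6.91 and 1.09, change -2.13) had the lowest values of change, and Acaa1a the highest (1.66 and 0.526 against 5.11 and 4.65, change 2.38), none of them called without the block. Other block calls were Abca8b, Acad8, Acsl4, Acss1 and Agpat5 among the lower genes, and Abca2, Abcf1 and Pex6 among the higher. All 6 acyl-CoA synthetases and thioesterases had a lower value in the knockout, with a median of -1.01 (-0.66 centred), and 0 of them were called without the block. Over all genes, 1521 of 5082 processing changes lay above 0.

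Knockout processing rates obeyed the same kind of relation as degradation rates, with the level of unspliced RNA in place of the mature level. With the level difference as a term, the unspliced level agreed between labelling times within 0.001 log2 units in 50 of 50 members and 5082 of 5082 genes, and the plain ratio of synthesis to processing rate did so in 4 of 49 and 6.01%. Recomputed as synthesis over unspliced level, processing rates gave a member median of -0.33 and 0 calls, and with labelling time as a block 6 members (among them Abcf1 higher, and Acot11, Agpat5, Pex5 and Pex19 lower) and 788 of 5076 genes (12.2% against 15.5%). The recomputed change was -1.61 for Pex5 and -1.38 for Pex19. It was -1.70 for Acot11, -1.68 for Abcc10 and 1.48 for Acaa1a, of which only Acot11 passed with the block.

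Ratios of unspliced level between the genotypes recurred across genes. The commonest ratio of knockout to wild-type level was 0.796, held to within 0.00001 log2 units by 328 of 5082 genes, Ech1 among them. Divided by it, the ratios of 28 of 50 members (56%) and 45.3% of all genes were ratios of 2 whole numbers of at most 10, and those of 40 members (80%) and 72.0% of all genes of whole numbers up to 30. The ratio was 3 to 1 for Abca8b and Pex19, 7 to 2 for Pex5, 8 to 3 for Acot11 and 5 to 1 for Abcc10. It was 3 to 7 for Abcf1 and 5 to 13 for Acaa1a. These are the smallest whole numbers with that ratio, and read numbers, not used here, could be any multiple of them. Each genotype had 1 unspliced level per gene, so the spread between labelling times, on which the tests rest, does not include the error of that level.

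**Figure D5:**
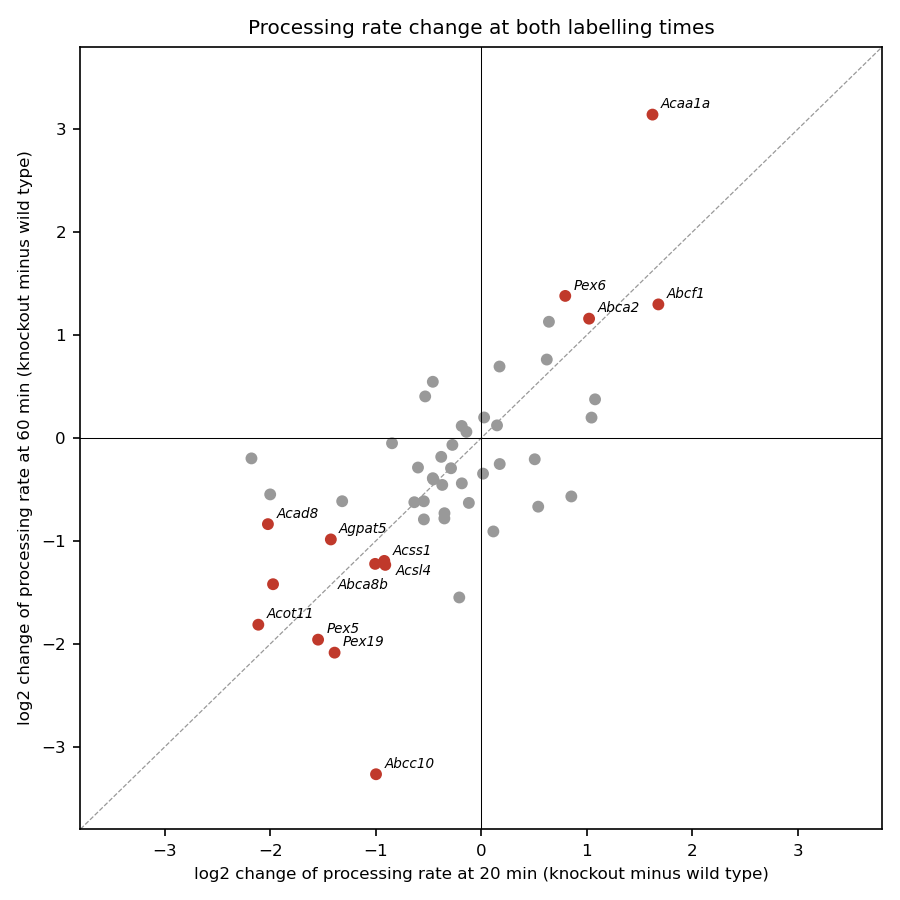
Log2 change of deposited processing rate at 20 min (horizontal) and 60 min (vertical), knockout minus wild type, for 50 genes; red points have an adjusted p under 0.05 by limma with labelling time as a block, grey points do not. The dashed line marks equal changes; Pex5, Pex19 and Acot11 lie below -1.30 at both times.

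Other genes of the same pathways, from a list of 146 symbols of which 96 were in the table, were compared as a frame. Of the 54 with all degradation rates, 14 rose and 0 fell as deposited (25.9% against the 23.1% of all genes), with a median of 1.04. With recomputed rates 0 of them passed, as for all genes. The peroxisomal matrix and membrane enzymes had 5 of 9 higher (Cat, Scp2, Far1, Pxmp4 and Slc25a17), and the genes of sterol synthesis and its control 2 of 10 (Scap and Nr1h2).

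The authors' deposited table of their own limma comparison held 59 of the members for degradation rate and had an adjusted p under 0.05 for 34 of them, 31 higher and 3 lower. It had 2245 of 6182 genes in all (36.3%), and 20 of the 21 calls made here were calls there. The exception, Acsl4, has no degradation value in the authors' deposited table as used here. It shares its libraries with the fit above and is no separate evidence.

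Of the 21 called genes, 6 overlap another protein-coding gene in GENCODE M21, among them Acaa1a (Myd88 and Slc22a14), Acad11 (Ackr4 and Gm28305), Agpat1 (Egfl8) and Abcc10 (Dlk2). Whether reads were counted by strand is not given in the sources used here, so their rates may include reads of the partner. Acot1 and Acot2, Acaa1a and Acaa1b, Abca8a and Abca8b, and Acat2 and Acat3 are close paralogs whose reads the authors' counting could split, and their rates are uncertain for that reason.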

How the data were processed

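The rates of 4 labelled libraries (2 per genotype) were used. The authors deposited synthesis, processing and degradation rates as linear signal values of 0 or above, estimated with INSPEcT per the labels. The submitters' processing notes name cutadapt, Bowtie2, TopHat2, HISAT2 and limma, and the builds mm10, dm6 and sacCer3, without roles. The notes do not tie a version to any of them. Fly and yeast RNA was added at 10% by weight, per the labels' protocols. The authors also deposited 1 table per rate comparing the genotypes; per the file headers these hold log2 changes, p-values and 2 score columns (moderated statistic and log odds, not used). Counts were not used here, so depth is unknown.

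Genes with a rate above 0 in all 4 libraries entered each test. Their log2 rates, with no pseudocount added, were compared between genotypes with limma 3.58.1 (R 4.3.3; lmFit, eBayes without trend, two-sided, Benjamini-Hochberg over all genes tested, threshold 0.05). The fit was checked on simulated data. With 2 libraries per genotype an exact permutation test of 1 gene could not reach 0.05, so only the model across genes was used. Coordinates come from GENCODE M21 on GRCm38, matched by symbol (85 of 85), and promoters from RefSeq.

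The members and lists were chosen with earlier results of these data known. Per-library values were given, by rule, for members called in any rate, for the largest rise and fall of degradation rate in each family, and for the 3 largest processing changes of 1 direction at both times; members listed in wild type only were named. Other members given with values (among them Pex5, Pex7, Hadh, Hadha, Acsl1, Abca1, Abca3, Abcd3, Acadvl and the extremes of wild-type rate) were chosen after their values were seen. The values of some members are not reported here, but counts and medians include them.

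Labels give both genotypes the same labelling times. Across members, the 20 against 60 min differences of the genotypes moved together (Spearman rho 0.688 for synthesis, 0.690 for processing, 0.619 for degradation; 55, 50 and 56 genes that share libraries), and a fit with labelling time as a block was printed where it changed the call of a gene named with its change.

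Alternatives were centring, quantile normalization, the block, leaving out genes up to the 25th percentile of mean rate, a pseudocount at the 10th percentile, a trend in eBayes, a threshold of 0.01, each library left out, the authors' deposited tables, and recomputed knockout degradation rates. The block with recomputed rates, and recomputed processing rates, were chosen after seeing the data.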

Additional observations from a re-analysis of the deposited data

Results flagged for a closer look

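Between the 20 and 60 min libraries, 2 of 56 tested members had degradation rate changes of opposite sign: Abce1 with 0.16 and -0.063, and Pnpla3 with 0.42 and -0.032. Among the named genes, 4 had processing rate changes of opposite sign at the 2 labelling times: Abcb8 with 0.11 and -0.91, Abcb9 with -0.19 and 0.12, Acad11 with 0.54 and -0.67, and Ech1 with -0.53 and 0.40. These differences between labelling times were not tested, since each time has 1 library per genotype. Over all tested members, signs were opposite in 10 of 50 processing changes and 29 of 55 synthesis changes.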

How the results depend on the processing

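Calls for degradation rate over all genes, 1321 as reported, were 2741 with labelling time as a replicate block, 92 with centred libraries, 2070 with both, 596 with quantile normalization, 0 at a threshold of 0.01, 2245 in the authors' deposited table, 0 with knockout rates recomputed with the level difference as offset (0 with the block too) and 2 with the level solved from both times. Member calls in these settings, from 21, were 39, 1, 17, 7, 0, 34, 0, 0 and 0. Leaving out 1 library gave 1 to 1137 genes and 0 to 21 members. Processing calls, from 0, were 1300 genes and 14 members with the block, 688 and 6 with the block and centring, 788 and 6 with the block on recomputed processing rates, and 1 to 97 genes and 0 to 1 members without a library. Synthesis calls were 3 to 16 genes and 0 members without a library, and 0 genes otherwise.

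Among the members followed by rule, signs turned with recomputed rates (offset, same value with the block; then solved from both times) for Abca2 (-0.22 and -0.21), Abcf1 (-0.093 and -0.079), Acot11 (-0.46 and -0.41), Ech1 (-0.31 and -0.35), Pnpla6 (-0.56 and -0.54) and Acsl4 (0.19, offset only). They also turned for other members, such as Pex5 (-0.10), Pex7 (-0.21) and Abca3 (-0.0090). With centring, with or without the block, Abce1 was at -0.81 and Elovl5 at -0.092; Abce1 was at -0.71 after quantile normalization, -0.29 without the wild-type 20 min library and -0.18 without the knockout 60 min library, with 0.38 as its highest value when 1 library was left out. Of 29 degradation changes of single members, 27 kept their side of the threshold with an eBayes trend and 26 with a pseudocount. The recomputed rates leave out the level difference by construction; the cause of the other shifts was not tested. Depth is unknown, each genotype has 1 level per gene, and the 2 libraries of a genotype are not independent estimates of it.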
